A study of Mus musculus with 12 samples.

Results

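Trim33-KD embryoid bodies were set against wild-type (WT) embryoid bodies after the activin and nodal type I receptors had been blocked for 2 h. The comparison gives the line difference after that short block and can also hold differences that arose before it. It rests on 4 of the 12 arrays of the study, all chosen by their labels: 2 Trim33-KD-SB arrays and 2 WT-SB arrays. Both lines are mouse embryonic stem cells (ESCs) of strain 129, grown as embryoid bodies in low-attachment dishes with LIF left out. The bodies were treated on day 2.5 with SB431542, an inhibitor of the activin, nodal and TGF-beta type I receptors, for 2 h; the labels give its dose as 10 mM. Another 4 arrays hold the same lines given activin at 50 ng/ml for 2 h (Trim33-KD-ac and WT-ac, 2 arrays each). The 4 remaining arrays hold Smad4-null bodies under both treatments. How the knock-down was made, and whether each line is 1 clone, the sources used here do not give. Nor do the labels say that replicates were separate cultures, so p-values speak only for the spread among these arrays, which may be technical.

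Trim33 (TIF1 gamma) is a chromatin-reading ubiquitin ligase of the TIF1 family. It binds Smad2 and Smad3 after receptor activation and has been described both as a partner and as an antagonist of Smad4. In embryoid bodies, nodal made by the cells drives mesendoderm genes and its own feedback inhibitors, the Lefty proteins. SB431542 stops that loop at the receptor.

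Signals are the deposited log2 values, 1 probe set for each of 18193 genes, and a difference is always Trim33-KD minus WT on the log2 scale. Raised and lowered are used of genes with a limma adjusted p under 0.05 when the 9097 genes in the upper 50% by mean signal (mean log2 signal over 7.48) were tested. That mean includes the arrays compared, so a gene can pass the filter through the group in which it is high. Signal of 1 probe set is not compared with that of another. In bulk RNA, fewer cells of a type and less RNA per cell cannot be told apart.

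The targeted gene was read first. Trim33 had log2 signals of 10.35 and 9.85 on the Trim33-KD-SB arrays, against 11.58 and 11.95 on the WT-SB arrays. The groups did not overlap, and the difference of -1.67 (SE 0.16) left 31.5% of the WT-SB signal, with an adjusted p of 0.0025 in the upper 50%. A second bright Trim33 probe set differed by -1.72. The other TIF1 genes were not called: Trim24 differed by 0.32 (adjusted p 0.20) and Trim28 by -0.03 (adjusted p 0.98), while Trim66, in the dimmer 50%, differed by 0.31. Smad4 differed by -0.10 (adjusted p 0.73). Among the 3 bright TIF1 genes, Trim33 was the 1 called.

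The 4 arrays did not look alike in quality. WT-SB replicate 2 had the narrowest spread of all probe sets (SD 3.07, against 3.32 to 3.36 on the other 3 arrays), and its median of 6.30 was above their 5.85 to 6.06. The gap between the 3' and 5' Actb controls, a sign of RNA quality, was 0.53 and 0.74 on the Trim33-KD-SB arrays, against 0.32 and 0.67 on the WT-SB arrays. The mean log2 signal of the rRNA controls was 8.12 and 10.16 on the Trim33-KD-SB arrays, against 5.82 and 7.57 on the WT-SB arrays, without overlap, and its part in the differences below was not tested. The 8 epiblast markers (Pou5f1, Nanog, Sox2 and others) summed to 15.4 and 15.4 in Trim33-KD-SB and to 15.4 and 15.3 in WT-SB. All 8 lay in the upper 50%, and 2 of them, Fgf5 (-0.98) and Otx2 (-1.07), were lowered, as was 0.363% of the upper 50%. The sum is of linear signals, so its brightest members weigh most. Only 1 of 10 fibroblast, 2 of 10 blood and endothelial, 2 of 10 extraembryonic endoderm and 4 of 10 trophectoderm markers lay in the upper 50%. The blood and endothelial markers summed to 10.11 and 9.74 in Trim33-KD-SB, against 10.21 and 10.45 in WT-SB. Of these 10, 5 had their arrays apart downwards and 0 upwards (21.6% and 17.3% of all genes). Their part in the differences below was not tested.

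Of the 9097 genes, 105 were called (1.15%): 72 were raised (0.791%) and 33 lowered (0.363%) in Trim33-KD-SB. When all 18193 genes were tested with the same limma model, 0 were called, the smallest adjusted p being 0.062 for Chac1; 1961 had an unadjusted p under 0.05, where 909.65 would be expected. Among the 105, differences ran from -1.72 to 1.78 with a median size of 0.87, and the 2 Trim33-KD-SB arrays lay apart from the 2 WT-SB arrays for every one, as they did for 41.3% of all genes in the upper 50%. The quartiles of all 9097 differences were -0.13 and 0.16. The count rests heavily on single arrays: 9 genes were called without Trim33-KD-SB replicate 2, 42 without WT-SB replicate 2, 65 without WT-SB replicate 1 and 167 without Trim33-KD-SB replicate 1, and 56 without either Smad4-null-SB array, which enters through the shared spread. The 9 genes called without Trim33-KD-SB replicate 2 were Chac1, Pck2, Nefm, Klhl8, Mylpf, Slc23a1, Ccnd2, Rhox5 and Trim33, all among the 105; every other gene named here as raised or lowered lost its call without that array. Quantile normalization, which shifted the differences of all genes by a median of 0.13, called 90 raised and 25 lowered genes (78.3% raised), and centring the arrays on their medians, which shifted them by 0.26, called 528 raised and 21 lowered (96.2% raised), against 68.6% raised as deposited.

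**Figure D1:**
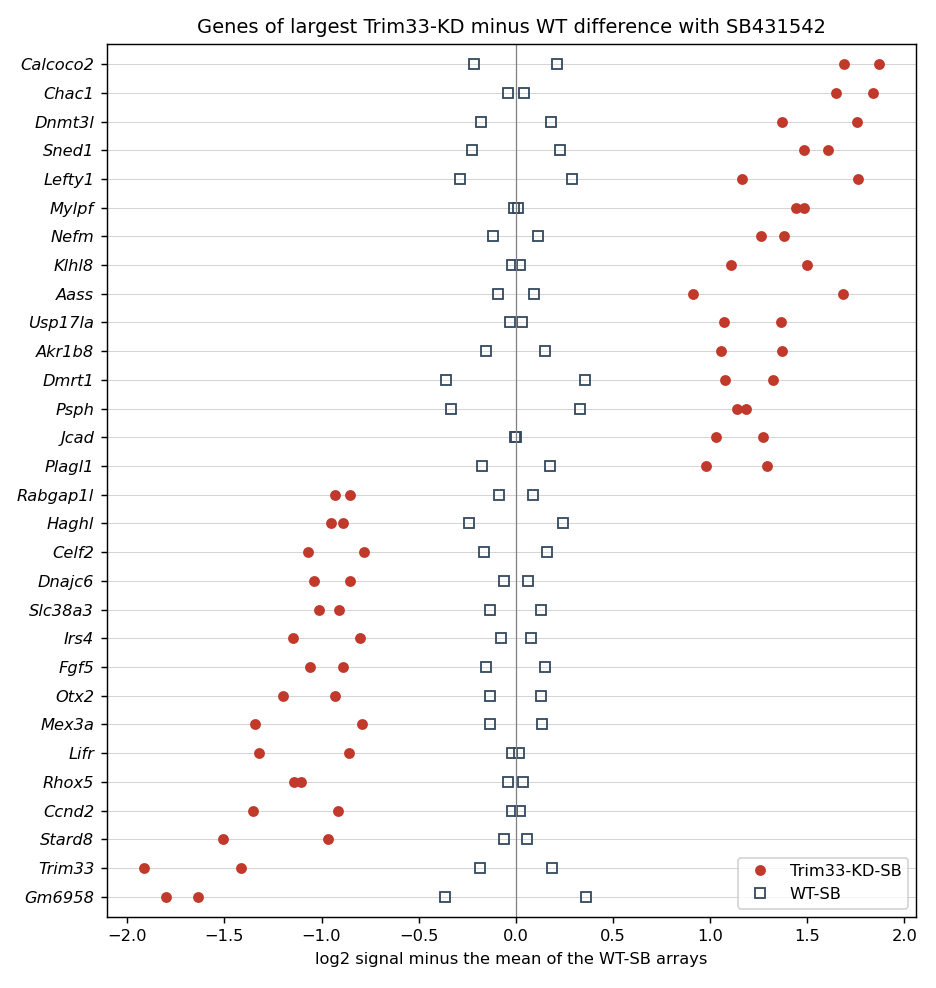
Log2 signal of each Trim33-KD-SB array (filled circles) and each WT-SB array (open squares) minus the WT-SB mean, for the 15 raised and 15 lowered genes of largest difference. Lack of overlap between the 2 groups was a condition of choosing these 30 genes. Calcoco2 (1.78) stands at the top and Gm6958 (-1.72) and Trim33 (-1.67) at the bottom.

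Chac1 had the smallest adjusted p. This enzyme breaks down glutathione and is a known target of the stress transcription factor ATF4, which cells switch on when amino acids run short, when unfolded protein collects or under oxidative stress. Its log2 signals were 10.49 and 10.30 in Trim33-KD-SB, against 8.61 and 8.69 in WT-SB. Both knock-down arrays lay far above both WT arrays, 3.35-fold on average (difference 1.74, SE 0.13, adjusted p 0.0004). It was also the 1 gene called among all 18193 when the activin arrays were compared (0.00550% of them; difference 2.25, adjusted p 0.0099).

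Other ATF4 and stress genes stood high as well. Of 15 members of that list in the upper 50%, 4 were raised and 0 lowered, against 0.791% and 0.363% of all genes tested. Both knock-down arrays lay above both WT arrays for 9 members and below for 0. Over all genes in the upper 50% those shares were 23.3% and 18.0%. This list and those below were drawn up with earlier results of these data known, so their counts and medians are descriptions, not tests. As 1.15% of the upper 50% was called, 0 calls in a list of such a size do not set it apart. The median difference of the 15 was 0.50, against 0.02 over all genes tested. Besides Chac1, the raised members were Cebpb, a bZIP factor (0.99), Cth, which makes cysteine (0.83), and Sesn2, a stress-induced inhibitor of mTORC1 (0.77). A second bright probe set of Cebpb differed by 0.21 and one of Sesn2 by -0.01, both smaller than those called. Cth had log2 signals of 11.12 and 11.16 in Trim33-KD-SB, against 10.27 and 10.35 in WT-SB. Stc2 (1.06, adjusted p 0.0503) and Trib3 (1.01, adjusted p 0.06), a pseudokinase induced by ATF4, fell just short of the threshold.

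The list was not uniform. Atf4 itself differed by -0.18 (adjusted p 0.58), Ddit3, which encodes the pro-apoptotic factor CHOP, by -0.19 (adjusted p 0.69) and Ddit4 by -0.01 (adjusted p 0.995). Nupr1, a small stress-induced chromatin protein, was in the dimmer 50% and had 8.15 and 8.08 in Trim33-KD-SB, against 5.24 and 5.41 in WT-SB. Its difference was 2.79 as deposited and 2.12 when signals under 64 on the linear scale were set to 64, as both WT-SB signals were, and its adjusted p over all genes was 0.14. Atf3, also dim, differed by 1.21 (adjusted p 0.23 over all genes). Without Trim33-KD-SB replicate 2, 1 member of the list was called, and without WT-SB replicate 2, 2.

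Enzymes that make serine, asparagine and related amino acids formed a second group. Of 13 members in the upper 50%, 3 were raised (0.791% of the upper 50%) and 0 lowered, with 9 having their arrays apart upwards (23.3% of the upper 50%), 2 apart downwards (18.0%) and a median difference of 0.42. Psph and Psat1 carry out the last steps of serine synthesis. Psph had 10.64 and 10.69 in Trim33-KD-SB, against 9.17 and 9.84 in WT-SB, a difference of 1.16 (adjusted p 0.022). Psat1 had 13.01 and 13.01 in Trim33-KD-SB, against 12.26 and 12.41 in WT-SB (0.68, adjusted p 0.017). Asns, the asparagine synthetase, had 12.65 and 12.72 in Trim33-KD-SB, against 11.85 and 12.17 in WT-SB (0.68, adjusted p 0.037). Phgdh, which starts serine synthesis, differed by 0.42 (adjusted p 0.19), Shmt2 by 0.64 (adjusted p 0.092) and Got1 by -0.29 (adjusted p 0.27). Without Trim33-KD-SB replicate 2, 0 members of this list were called, and without WT-SB replicate 1, 1.

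Pck2, the mitochondrial phosphoenolpyruvate carboxykinase, lies outside that list and was among the 9 genes called without Trim33-KD-SB replicate 2. Its log2 signals were 10.52 and 10.58 in Trim33-KD-SB, against 9.56 and 9.66 in WT-SB, a difference of 0.94 (SE 0.10, adjusted p 0.0034). Aass, which starts lysine breakdown, was raised by 1.30 (adjusted p 0.021).

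Among amino acid transporters 2 of 11 were raised and 0 lowered (0.791% and 0.363% of the upper 50%), with a median of 0.15. Arrays lay apart upwards for 5 and downwards for 1 (23.3% and 18.0% of the upper 50%). Slc7a1, which imports arginine and lysine, had 10.10 and 9.86 in Trim33-KD-SB, against 8.78 and 8.94 in WT-SB (1.12, adjusted p 0.016), and a second bright probe set of it differed by 0.87. Slc1a5, a neutral amino acid exchanger, differed by 0.58 (adjusted p 0.028); a dim probe set of the same gene went the other way, and the mean over its probe sets was -0.62. Slc38a3, a glutamine transporter outside the list, was lowered (-0.96, adjusted p 0.033). No transporter of the list was called without either Trim33-KD-SB array or without WT-SB replicate 2.

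The 19 cytosolic aminoacyl-tRNA synthetases, many of them ATF4 targets too, gave 0 calls. Their differences ran from -0.20 to 0.54 with a median of 0.18, and 11 had their arrays apart upwards, 2 downwards (23.3% and 18.0% of the upper 50%). The unfolded protein response list, with the chaperone gene Hspa5 (0.08) and Xbp1 (0.42), also gave 0 calls among 12 and a median of 0.11. The p53 targets (0 of 13, median 0.07) and the hypoxia and glycolysis genes (0 of 11, median -0.09) held no called gene. The median of the last turned to 0.18 after median centring. Arrays lay apart upwards for 7 p53 targets, 5 unfolded protein response genes and 0 hypoxia and glycolysis genes (23.3% of the upper 50%). They lay apart downwards for 0, 0 and 4 of them (18.0% of the upper 50%).

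**Figure D2:**
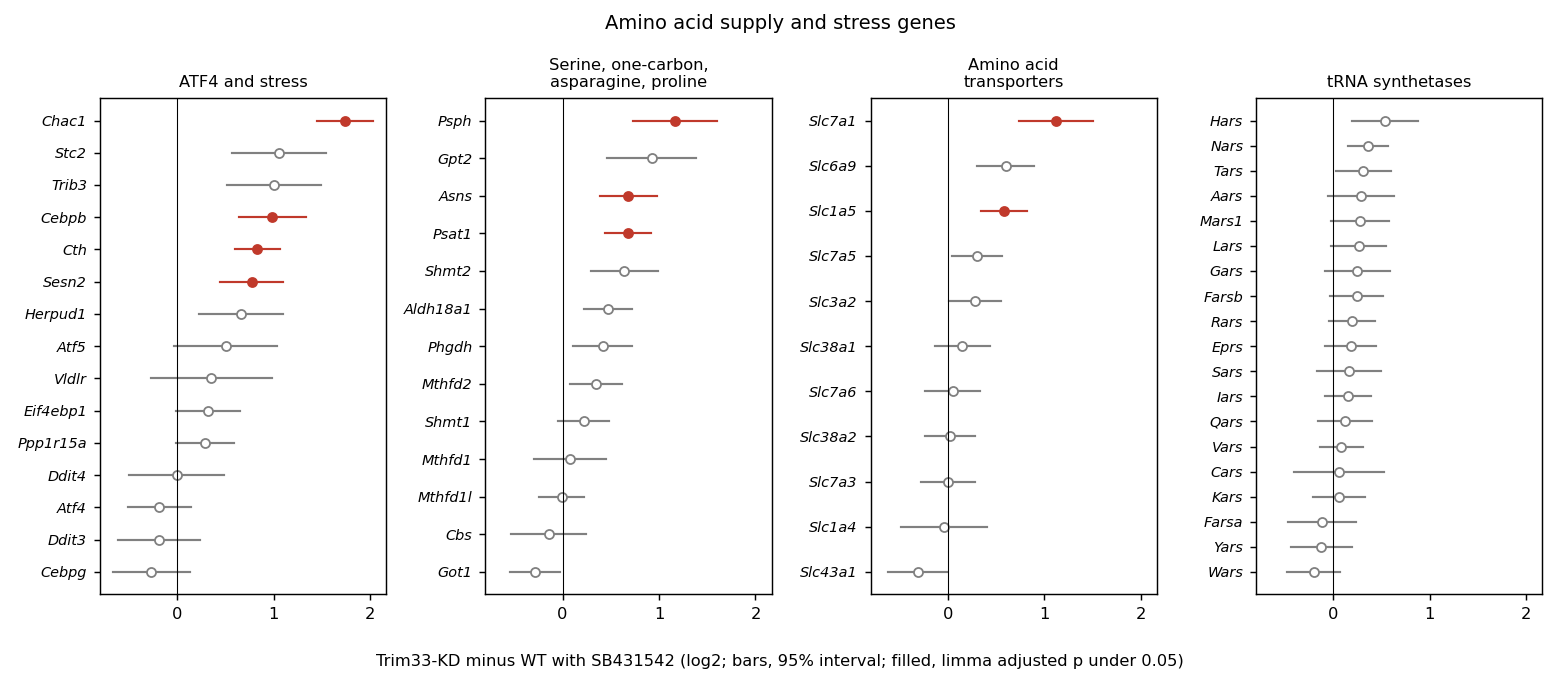
Trim33-KD minus WT difference with SB431542 (log2) of every member in the upper 50% of 4 lists; bars are 95% intervals and filled points are raised genes. Chac1 at 1.74 leads the first panel, with 4 filled members there, 3 in the serine panel, 2 in the transporter panel and 0 in the tRNA synthetase panel.

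Promoter sequences are shown for raised genes of this group because C/EBP-ATF response elements, the composite sites bound by ATF4 with a C/EBP partner, have the known core TGATGNAA. The RefSeq promoters (GRCm38.p6, 250 bases before to 50 after the start of each gene) were searched on both strands for those 8 letters and for no other motif. Of the raised genes of the ATF4 and stress list, 3 had a promoter in the table and Chac1 was the one with a match, 193 bases before its start on the opposite strand; Cebpb and Sesn2 had none in this window. Asns and Pck2, chosen after their values were seen, each had 1 match, 23 and 103 bases before the start. Capitals mark the match.
Chac1, chr2:119350992-119351291, plus strand: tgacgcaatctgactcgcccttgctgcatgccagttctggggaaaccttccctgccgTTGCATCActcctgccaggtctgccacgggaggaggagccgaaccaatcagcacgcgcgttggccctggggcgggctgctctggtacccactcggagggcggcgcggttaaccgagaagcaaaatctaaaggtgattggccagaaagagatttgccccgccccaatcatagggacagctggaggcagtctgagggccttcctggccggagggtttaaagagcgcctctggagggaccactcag
Asns, chr6:7693160-7693459, minus strand: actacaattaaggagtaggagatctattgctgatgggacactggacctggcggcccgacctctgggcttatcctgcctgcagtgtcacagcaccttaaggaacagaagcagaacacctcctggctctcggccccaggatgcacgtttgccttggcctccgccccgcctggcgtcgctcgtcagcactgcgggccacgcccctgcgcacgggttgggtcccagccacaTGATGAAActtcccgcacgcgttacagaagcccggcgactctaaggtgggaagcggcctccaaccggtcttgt
Pck2, chr14:55540016-55540315, plus strand: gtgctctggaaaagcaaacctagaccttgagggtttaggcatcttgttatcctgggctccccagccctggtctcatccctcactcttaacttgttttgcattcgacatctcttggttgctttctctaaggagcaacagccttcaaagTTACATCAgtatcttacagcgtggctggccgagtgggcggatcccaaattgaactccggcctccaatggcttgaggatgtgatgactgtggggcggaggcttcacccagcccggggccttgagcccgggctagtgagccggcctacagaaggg
Among the 52 raised genes with a promoter in the table, 4 held a match (7.69%: Chac1, Pck2, Asns and Tubb3), against 0 of 25 lowered genes and 2.45% of the 7482 genes of the upper 50% with a promoter. Of the whole table, 1219 of 27025 genes (4.51%) held one. The ATF4 and stress list held a match in 8 of 17 promoters (47.1%), a list gathered in part because its members are known ATF4 targets. A match describes letters, not binding.

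Both Lefty genes were raised in the knock-down line with the receptors blocked. They encode secreted antagonists of nodal that nodal itself switches on. Lefty1 had 11.50 and 12.09 in Trim33-KD-SB, against 10.62 and 10.05 in WT-SB, a difference of 1.46 (SE 0.21, adjusted p 0.011). Lefty2 had 9.81 and 10.14 in Trim33-KD-SB, against 9.28 and 9.14 in WT-SB (0.77, adjusted p 0.027). The 2 Lefty genes were the called members among 12 feedback genes (0.791% of the upper 50% was raised and 0.363% lowered). The median of the 12 was 0.05. Arrays lay apart upwards for 4 of them and downwards for 2 (23.3% and 18.0% of the upper 50%). Smad7, the inhibitory Smad, differed by 0.67 (adjusted p 0.20) and the pseudoreceptor Bambi by 0.53 (adjusted p 0.11). Without both arrays of highest Actb 3' to 5' gap (replicate 2 of either group), Lefty1 differed by 0.88 and Lefty2 by 0.54. Without Trim33-KD-SB replicate 2, or without WT-SB replicate 2, 0 members of this list were called, and without WT-SB replicate 1, 1.

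Both genes had higher signals in both lines with activin. There, Lefty1 had 13.51 and 13.70 in Trim33-KD-ac, against 13.16 and 13.13 in WT-ac, a line difference of 0.46 (adjusted p 0.38). The line difference of Lefty1 was thus 1.0 larger with SB431542 than with activin (95% interval 0.35 to 1.65, unadjusted p 0.0062), but its adjusted p over the upper 50% was 0.999997. Lefty2 had 11.14 and 11.23 in Trim33-KD-ac, against 10.26 and 10.55 in WT-ac, and its line difference with SB431542 was within 0.02 of that with activin (95% interval of the difference -0.45 to 0.42).

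The nodal pathway itself held no called gene among 11 members in the upper 50% (median -0.09, which becomes 0.18 after median centring). Of all genes in the upper 50%, 1.15% were called. Arrays lay apart upwards for 1 member and downwards for 5 (23.3% and 18.0% of the upper 50%). Nodal differed by 0.22 (adjusted p 0.56), its co-receptor gene Tdgf1 by -0.34 (adjusted p 0.22), the type I receptor gene Acvr1b by -0.44 (adjusted p 0.20) and the antagonist gene Fst by -0.79 (adjusted p 0.23). Apela, which encodes a secreted peptide of early embryonic cells, was raised, with 12.32 and 12.36 in Trim33-KD-SB, against 11.41 and 11.69 in WT-SB (0.80, adjusted p 0.021).

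No mesendoderm factor was called. Of 11 measured, 8 had both knock-down arrays below both WT arrays and 0 above, where 21.6% of all genes were apart downwards, 17.3% upwards and 38.9% in either direction. Gata4, in the dimmer 50%, differed by 0.21 with overlapping arrays (adjusted p 0.83 over all genes). In all, 4 lay in the upper 50%, with a median of -0.78, and the median of these 4 stayed below 0 with quantile normalization (-0.76) and median centring (-0.52). Eomes, which starts the mesendoderm programme, had 10.80 and 10.51 in Trim33-KD-SB, against 11.49 and 11.36 in WT-SB (-0.76, adjusted p 0.13). Mixl1 had 8.53 and 8.01 in Trim33-KD-SB, against 9.17 and 9.17 in WT-SB (-0.90, adjusted p 0.28). Gata6 and Gsc, both in the dimmer 50%, differed by -1.05 and -1.18. The summed signal of 10 extraembryonic endoderm markers, which share Gata6, Sox17, Gata4 and Foxa2 with this list, was 10.4 and 10.2 in Trim33-KD-SB, against 10.8 and 10.8 in WT-SB, and its part in these differences was not tested. None of 12 mesoderm factors or 9 posterior genes lay in the upper 50%; Mesp1 differed by -1.06 (adjusted p 0.34 over all genes).

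Epiblast and early neural genes included several of the lowered genes. Otx2, the homeobox gene of anterior epiblast, had 9.79 and 10.06 in Trim33-KD-SB, against 11.13 and 10.86 in WT-SB, a difference of -1.07 (adjusted p 0.011). Fgf5, the classic marker of primed epiblast, had 10.28 and 10.10 in Trim33-KD-SB, against 11.32 and 11.01 in WT-SB (-0.98, adjusted p 0.037), and a second bright probe set of it differed by -1.32. These 2 were the called members among 11 primed epiblast genes (0.363% of the upper 50% was lowered and 0.791% raised). The median of the 11 was -0.13 (0.13 after median centring). Arrays lay apart upwards for 2 of them and downwards for 4 (23.3% and 18.0% of the upper 50%). Dnmt3b (0.05), Pou3f1 (0.33) and Etv5 (0.06) were not called. Fgf15, an FGF of the early neural tube, had 7.32 and 6.94 in Trim33-KD-SB, against 7.85 and 7.91 in WT-SB (-0.75, adjusted p 0.022). Fgf8 differed by -0.62 (adjusted p 0.28), and the ERK feedback genes Dusp6 and Spry4 by -0.22 and 0.02. Each of the lists that hold Otx2, Fgf5 and Fgf15 had 0 calls without Trim33-KD-SB replicate 2 and without WT-SB replicate 1, and the FGF and ERK list also without WT-SB replicate 2.

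Pluripotency genes gave no call, where 1.15% of the upper 50% was called. Arrays lay apart upwards for 3 of 13 naive and 3 of 10 core genes (23.3% of the upper 50%). They lay apart downwards for 0 and 2 (18.0% of the upper 50%). The 13 naive genes in the upper 50% had a median of 0.18 and ran from Tfcp2l1 (-0.14) to Pecam1 (0.43), with Zfp42 at 0.27 (adjusted p 0.28) and Klf4 at 0.32 (adjusted p 0.41). The 10 core genes had a median of 0.03, with Pou5f1 at 0.05 and Nanog at -0.17; Dppa2 differed by 0.57 (adjusted p 0.075). Lifr, the receptor subunit for LIF, was lowered, with 9.03 and 8.56 in Trim33-KD-SB, against 9.90 and 9.87 in WT-SB (-1.09, adjusted p 0.0062).

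**Figure D3:**
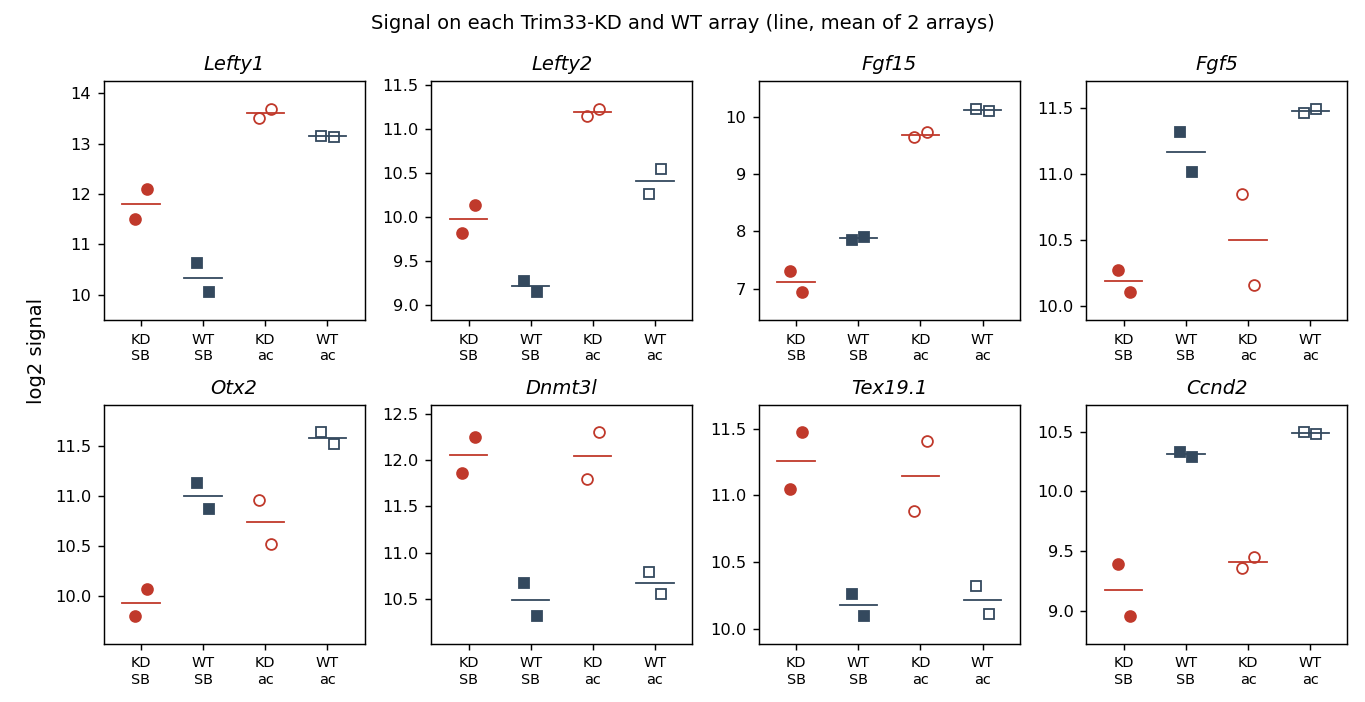
Log2 signal of Lefty1, Lefty2, Fgf15, Fgf5, Otx2, Dnmt3l, Tex19.1 and Ccnd2 on each Trim33-KD (circles) and WT (squares) array, with SB431542 (filled) and with activin (open); lines are means of 2 arrays and each panel has its own axis. The Lefty1 groups are 1.46 apart with SB431542 and 0.46 with activin, while the Dnmt3l, Tex19.1 and Ccnd2 signals differ mainly by line.

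Dnmt3l and the germ cell genes Tex19.1, Dmrt1 and Mageb16 were raised. Dnmt3l, the cofactor of the de novo DNA methyltransferases, had 11.86 and 12.25 in Trim33-KD-SB, against 10.67 and 10.31 in WT-SB. That is 2.96-fold (difference 1.56, SE 0.19, adjusted p 0.0047), and the 6 other bright methylation enzymes ran from -0.19 for Tet1 to 0.29 for Dnmt3a, with 0 calls. Tex19.1, a germ cell and placental gene silenced by methylation in somatic cells, had 11.05 and 11.47 in Trim33-KD-SB, against 10.27 and 10.10 in WT-SB (1.08, adjusted p 0.022). Dmrt1, a testis transcription factor, had 10.08 and 10.33 in Trim33-KD-SB, against 9.36 and 8.65 in WT-SB (1.2, adjusted p 0.022). Mageb16 on the X chromosome was raised by 0.81. Of 9 germ cell genes, 1 was raised and 0 lowered (0.791% and 0.363% of the upper 50%). Their median was 0.03, and arrays lay apart upwards for 2 and downwards for 3 (23.3% and 18.0% of the upper 50%). Dazl differed by -0.37 (adjusted p 0.21) and Sycp3 by -0.43. Rhox5, an X-linked homeobox gene of the reproductive tract, went the other way, with 10.59 and 10.63 in Trim33-KD-SB, against 11.77 and 11.69 in WT-SB (-1.12, adjusted p 0.0035).

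Among imprinted genes 1 of 13 was raised (0.791% of the upper 50%). Plagl1, a zinc finger gene of the imprinted gene network, differed by 1.14 (adjusted p 0.016) on its brightest probe set, while 2 dim probe sets of it differed by -0.56 and -0.44. Phlda2 differed by 1.15 (adjusted p 0.12) and Cdkn1c by 0.62 (adjusted p 0.088), and 5 of the 13 had arrays apart upwards, 0 downwards (23.3% and 18.0% of the upper 50%). Phlda2 was far higher on Trim33-KD-SB replicate 2 (12.03) than on replicate 1 (10.96), and so were the trophectoderm markers, whose summed signal was 12.85 and 13.69 in Trim33-KD-SB, against 12.82 and 12.96 in WT-SB. The part of those markers in the Phlda2 value was not tested.

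Ccnd2, a G1 cyclin, was lowered, and all 7 of its probe sets had a negative difference. The brightest had 9.39 and 8.96 in Trim33-KD-SB, against 10.33 and 10.29 in WT-SB (-1.14, adjusted p 0.0047), and 4 other bright probe sets differed by -0.72 to -1.10. It was the called member among 11 G1 cyclins and Cdk inhibitors (0.363% of the upper 50% was lowered and 0.791% raised). Arrays lay apart upwards for 4 of the 11 and downwards for 1 (23.3% and 18.0% of the upper 50%). Ccnd1 differed by 0.10 (adjusted p 0.77) and Cdkn1a by -0.26 (adjusted p 0.56). Mitotic genes gave 0 calls among 11 (median -0.14, or 0.13 after median centring), and Mki67 differed by -0.03. Arrays lay apart upwards for 0 mitotic genes and downwards for 5 (23.3% and 18.0% of the upper 50%).

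Target lists of other pathways held few called genes. As 1.15% of the upper 50% was called, counts this small do not set these lists apart from all genes tested. BMP targets had 0 calls among 7 with a median of 0.42: Id1, Id2 and Id3 differed by 0.66, 1.05 and 0.42 (adjusted p 0.27, 0.088 and 0.17), and Id2 by 0.03 once probe sets marked as cross-hybridizing were left out. Arrays lay apart upwards for 4 of the 7 BMP targets and downwards for 1 (23.3% and 18.0% of the upper 50%). Wnt targets had 0 calls among 5, with Axin2 at -0.36 (adjusted p 0.22). Their median was -0.29 (-0.03 after median centring), with arrays apart upwards for 0 and downwards for 4. Of 8 matrix and cytoskeletal targets of TGF-beta, 1 was raised and 0 lowered (0.791% and 0.363% of the upper 50%). This was Ccn2, a matricellular growth factor, with 10.58 and 10.85 in Trim33-KD-SB, against 9.48 and 9.72 in WT-SB (1.11, adjusted p 0.014). Acta2 differed by -1.11 (adjusted p 0.057), and arrays lay apart upwards for 2 of the 8 and downwards for 3. Cholesterol synthesis genes had 0 calls among 12, a median of -0.18 that became 0.08 after median centring, and 6 members with arrays apart downwards against 0 upwards (18.0% and 23.3% of the upper 50%). Interferon genes (0 of 5), adhesion genes (0 of 7), immediate early genes (0 of 10) and housekeeping genes (0 of 8, median -0.03) held no called member either.

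The remaining genes of largest difference belong to no list. Calcoco2, an autophagy receptor gene, differed by 1.78 (adjusted p 0.028), with 8.42 and 8.61 in Trim33-KD-SB, against 6.52 and 6.95 in WT-SB. Mylpf, a fast muscle myosin light chain gene (1.46, adjusted p 0.0029), Nefm, the medium neurofilament gene (1.32, adjusted p 0.0025), and Klhl8, an adaptor of ubiquitin ligases (1.30, adjusted p 0.0025), were raised. Sned1, Usp17la, Akr1b8 and Jcad were raised by 1.54, 1.22, 1.21 and 1.15. On the lowered side stood Gm6958 (-1.72), Stard8 (-1.24), the RNA-binding protein gene Mex3a (-1.07), the insulin receptor substrate gene Irs4 (-0.97), the auxilin gene Dnajc6 (-0.95), the splicing regulator gene Celf2 (-0.93), Haghl (-0.92) and Rabgap1l (-0.89). The chemokine gene Cxcl12 was also lowered, with 9.12 and 9.07 in Trim33-KD-SB, against 9.67 and 10.27 in WT-SB (-0.87, adjusted p 0.036).

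The same line difference was measured on the 4 activin arrays, none of which enters the SB431542 difference itself, although all 4 enter the shared spread of the fit, the choice of probe sets and the signal filter. All 105 genes had the same sign there, against 77.0% of the 9097 genes. For 102 of the 105 the activin arrays of the lines lay apart in that direction (40.2% of the 9097 genes did so), the exceptions being Noc4l, Tnfrsf4 and Zfp691, and 95 had an unadjusted p under 0.05 (13.1% of the 9097). With activin 61 genes were called (0.671%), 45 raised and 16 lowered, and 49 genes were called under both treatments, 46.7% of the SB431542 list and 80.3% of the activin list. The activin count moved between 1 (without Trim33-KD-ac replicate 2) and 142 (without Trim33-KD-ac replicate 1); it was 4 without WT-ac replicate 1, 40 without either Smad4-null-ac array, and 25 without WT-ac replicate 2 or either Smad4-null-SB array. The arrays are not fully separate evidence, since same-numbered arrays of a line deviated together across treatments: over the 9097 genes, deviations of the 2 replicates correlated at 0.34 between Trim33-KD-SB and Trim33-KD-ac and at 0.39 between WT-SB and WT-ac.

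A test of the difference between the treatments called no gene. The knock-down effect with SB431542 minus that with activin had 0 limma calls among all 18193 genes (485 with an unadjusted p under 0.05) and 0 in the upper 50% (89, where 454.85 would be expected). Its 95% interval had a median half-width of 0.44 in the upper 50%. The test treats the arrays as independent; with same-numbered arrays of each line as a block, an alternative added after seeing the data, it also called 0 genes (183 of the upper 50% with an unadjusted p under 0.05, median half-width 0.38). The 105 differences had a median size of 0.87 with SB431542 and 0.73 with activin, and 80 were larger with SB431542, the treatment in which the genes were chosen. Among the 105, 11 had an unadjusted p under 0.05 for the difference between treatments, among them Asph (-0.60), Lefty1 (1.0), Zfp691 (-0.79), Noc4l (0.78) and Chac1 (-0.51). Noc4l, a ribosome assembly gene, was raised by 0.96 with SB431542 and differed by 0.18 with activin; its 3 other bright probe sets differed by 0.16, 0.05 and 0.31 with SB431542. Asph differed by -0.86 on the probe set tested, and by -0.11 and -0.44 on its other bright ones. Zfp691, a zinc finger gene, differed by -0.88 with SB431542 and by -0.09 with activin.

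**Figure D4:**
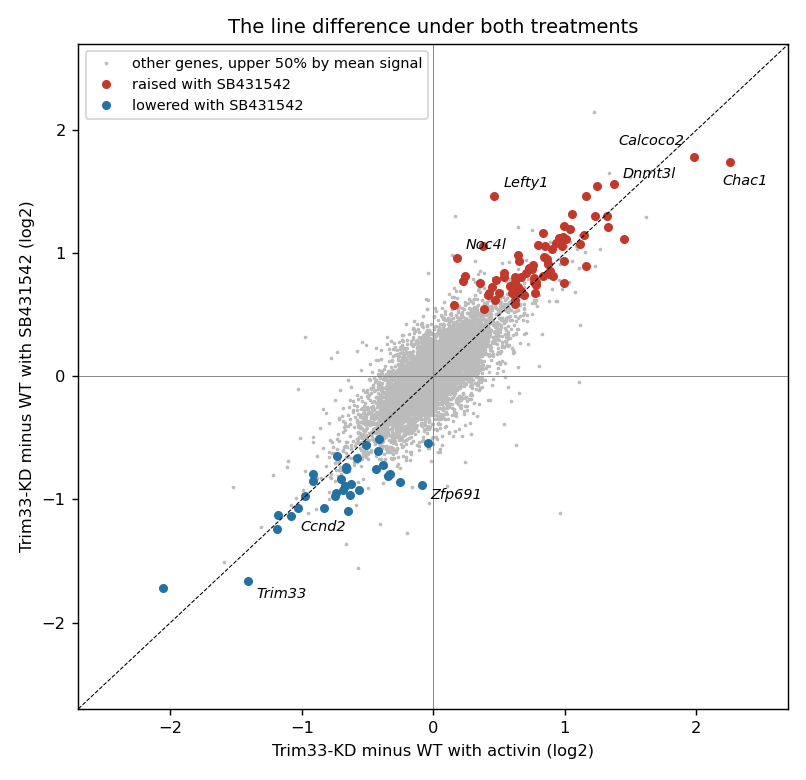
Trim33-KD minus WT difference with SB431542 (vertical, log2) against the same difference with activin (horizontal, log2) for the 9097 genes of the upper 50%; large points are the 72 raised and 33 lowered genes and the dashed line is equality. All 105 lie in the quadrants of equal sign; Lefty1 (1.46 against 0.46) and Noc4l (0.96 against 0.18) lie above the line and Chac1 (1.74 against 2.25) below it.

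Smad4-null bodies under SB431542 were compared with the same 2 WT-SB arrays, so the 2 comparisons share their controls and only the values are set side by side. Chac1 and Cth differed by 1.74 and 0.83 in Trim33-KD-SB, and by -0.27 and -0.18 in Smad4-null-SB (adjusted p 0.16 and 0.25). Pck2 and Nefm, both on chromosome 14, differed by 0.94 and 1.32 in Trim33-KD-SB, and by -1.12 and -2.95 in Smad4-null-SB. The part of their location in the Smad4-null values was not tested. Lefty1, Dnmt3l, Tex19.1 and Plagl1 differed by 1.46, 1.56, 1.08 and 1.14 in Trim33-KD-SB, and by 2.10, 1.88, 1.40 and 3.0 in Smad4-null-SB. Fgf5 and Ccnd2 differed by -0.98 and -1.14 in Trim33-KD-SB, and by -1.24 and -1.46 in Smad4-null-SB. Otx2 and Fgf15 differed by -1.07 and -0.75 in Trim33-KD-SB, and by 0.42 and 1.01 in Smad4-null-SB. Trim33 itself differed by -0.11 in Smad4-null-SB (adjusted p 0.70). Of the genes named in this paragraph, Trim33, Chac1, Cth and Otx2 missed the threshold in Smad4-null-SB and the others passed it.

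The last genes inside the threshold were Pmm1 (0.71, adjusted p 0.047) and Zbtb10 (-0.81, adjusted p 0.048), and the first outside were Pgm1 (-0.86, adjusted p 0.0501) and Stc2. Of the 105 genes, 59 had further probe sets. These 104 probe sets had the sign of the chosen one in 82 cases, 35 of 39 bright ones and 47 of 65 dim ones. The called genes lay on 21 chromosomes with 1 to 7 raised genes each, and the X chromosome held 3 raised and 3 lowered genes among 309 tested.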

How the data were processed

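RNA of embryoid bodies was hybridized to 12 Affymetrix arrays, 1 per sample. The authors deposited log2 signals per probe set; judged from the values, every array was scaled to a linear 2% trimmed mean of 500. How probes were summarized, the sources used here do not give; per the submitters' processing notes limma was used (no version). Values were used unchanged. Of 45101 probe sets, 64 are controls; the platform table gave 1 symbol to 34945, several to 932 and none to 9160. The probe set of highest mean over 12 arrays stood for each of 18193 genes.

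A means model of 6 groups over 12 arrays (6 residual degrees of freedom) was fitted with limma 3.58.1 in R 4.3.3 (lmFit, eBayes, Benjamini-Hochberg, threshold 0.05), over all genes as designed and over the upper 50% by mean signal, and was tested on simulated data. Arrays have no read depth; their number limits the precision. Named genes are Trim33, the 15 raised and 15 lowered of largest difference whose arrays do not overlap, and from each list the called members and up to 6 of smallest p; other members and genes were named after their values were seen. Members and lists were chosen with earlier results of these data known. Alternatives were scaling, filters, probe set choice, priors, array weights, blocks and leaving out arrays. Replicate numbers do not pair the lines: the deviations of Trim33-KD-SB and WT-SB correlate at 0.03 over all genes and at -0.06 over the upper 50%. Figures used Python 3.11.15 and matplotlib 3.10.9.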

Additional observations from a re-analysis of the deposited data

Results flagged for a closer look

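Egr3, an immediate early gene in the dimmer 50%, had its arrays apart in opposite directions under the 2 treatments. It had 6.15 and 6.17 in Trim33-KD-SB, against 5.06 and 5.88 in WT-SB, and 4.16 and 5.32 in Trim33-KD-ac, against 5.84 and 5.82 in WT-ac, so the SB431542 difference exceeded the activin difference by 1.78. Of these 8 signals 6 were under 64 on the linear scale, and with such signals set to 64 the gap was 0.16. Gata1, a blood transcription factor gene, also dim, had 5.83 and 4.79 in Trim33-KD-SB, against 5.98 and 6.22 in WT-SB, and 5.69 and 5.97 in Trim33-KD-ac, against 5.49 and 5.43 in WT-ac, a difference between the treatments of -1.15. Of its 8 signals 7 were under 64, and with the same floor the difference was -0.11. Neither passed limma's test of that difference over all genes.

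The comparison used probe sets with 1 gene symbol. Of 1279 probe sets in the same signal range that have no symbol or several, 12 were called with SB431542, 6 raised and 6 lowered in Trim33-KD; 9 have no symbol and 3 have several, and all 12 had the same sign on the activin arrays.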

How the results depend on the processing

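Trim33 differed by -1.67 with an adjusted p of 0.08 over all genes; it passed in the upper 50% or 75% of genes, with a floor of 64 and with a trended robust prior (-1.67 in each), and with quantile normalization (-1.68). Over all genes the count with SB431542 was 0, against 105 in the upper 50%, 23 in the upper 75%, 56 with the floor, 101 with the trended robust prior, 8 after quantile normalization and 4 after median centring; leaving out 1 array gave 0 to 1. The count of 105 became 549 after median centring, 36 with the mean of probe sets, 22 with array weights, 20 with only the groups compared, 13 without the narrow arrays (replicate 2 of WT-SB with replicate 1 of Smad4-null-ac), 1 without the arrays of highest Actb gap, and 9 to 167 when 1 array was left out. With activin the count over all genes was 1, against 61 in the upper 50%, 20 in the upper 75%, 34 with the floor, 50 with the trended robust prior, and 0 with only the groups compared, with the replicate block, without the narrow arrays and without those of highest Actb gap; leaving out 1 array gave 0 to 1. The 61 became 18 with the mean of probe sets, 31 with only the groups compared, 38 without the narrow arrays and 1 to 142 with 1 array left out. The difference between the treatments had 0 calls, or 0 to 2 over all genes and 0 to 1 in the upper 50% with 1 array left out, and 0 with a replicate block within each line. The replicate numbers do not pair the lines; with the number as a replicate block, only the groups compared, the 105 became 180 (114 raised, 66 lowered) and the 61 became 29. Fewer genes tested and fewer arrays are part of these settings; beyond that the cause was not tested.

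Plagl1 was -0.56 without probe sets marked as cross-hybridizing. Of the 105 genes, 5 changed sign in some setting: Slc1a5, Plagl1, Mpzl2, Ddc and Nudt9.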
